A study of Mus musculus with 6 samples.

Results

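The 9 keratin genes described here are Krt5, Krt14, Krt15, Krt16, Krt17, Krt6b, Krt2, Krt23 and Krt42, taken by name from the 651 genes in the authors' deposited tables of genes that differed between WT.GFP+ and ERα-/-.GFP+ mammary epithelial cells (MECs). MECs of littermate donors, which carry GFP under an actin promoter in a C57Bl6 background and either intact ERα or a germ-line deletion of it, were placed in the milk ducts of immunodeficient NSG females, with the genotypes in opposite glands. The hosts became pregnant, GFP+ cells were sorted from their glands, and RNA of 3 WT.GFP+ and 3 ERα-/-.GFP+ samples was sequenced. The RNA methods name a sort for GFP, while the cytometry methods, which pooled glands, also list antibodies to the leukocyte marker CD45, the endothelial marker CD31 and the erythroid marker Ter119 without saying whether they gated these samples. The ages of donors and hosts are not given in the sources used here. The tables give each genotype as the authors' mean, without values per sample, so the spread between samples is not given and the differences below are descriptions without a test. Nothing says how samples of a genotype relate to donors or hosts. Esr1, the gene of ERα, was in neither table, so the deletion could not be checked from these values. A gene is in the tables only because it passed the authors' thresholds on fold change and FDR, and the genotype of each column was taken from the direction the study gives, so neither the presence nor the direction of a difference is an independent result. Where a pair of values is given, that of WT.GFP+ MECs comes first.

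Keratins are the intermediate filament proteins of epithelia. A filament is built from pairs of a type I and a type II chain, and each layer of an epithelium uses its own pairs. In the mammary gland, Krt5 and Krt14 are the pair of basal and myoepithelial cells, while Krt8 and Krt18 are the pair of luminal cells. Krt6, Krt16 and Krt17 are known from epidermis as stress keratins, which are switched on in wounded or hyperproliferative epithelium.

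Most type I members lie close together and resemble each other, so their sequences are shown first, because they decide how far a read can be given to a single gene. The coding sequences of Krt14 and Krt16 were 86.5% identical in a global alignment, those of Krt14 and Krt17 84.6%, those of Krt14 and Krt42 82.6%, and those of Krt14 and Krt15 74.1%. The type II pair Krt5 and Krt6b was 81.8% identical. The lines below give the same 90 bases of coding sequence, on the minus strand of chromosome 11 of GRCm38 and spanning an intron, around the longest run that Krt14, Krt16 and Krt17 share, with capitals where a base differs from Krt14.
Krt14: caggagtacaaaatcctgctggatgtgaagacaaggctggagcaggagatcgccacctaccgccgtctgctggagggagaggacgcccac
Krt16: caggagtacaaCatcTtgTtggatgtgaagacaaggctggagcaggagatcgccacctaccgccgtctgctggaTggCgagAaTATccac
Krt17: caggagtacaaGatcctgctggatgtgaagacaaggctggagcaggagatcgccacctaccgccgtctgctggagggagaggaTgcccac
Krt42: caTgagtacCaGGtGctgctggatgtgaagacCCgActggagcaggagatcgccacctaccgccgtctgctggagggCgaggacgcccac
Krt15: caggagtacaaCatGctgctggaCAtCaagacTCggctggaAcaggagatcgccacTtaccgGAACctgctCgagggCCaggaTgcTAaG
The windows lie at chr11:100204020-100204196 in Krt14, chr11:100246515-100246698 in Krt16, chr11:100257345-100257521 in Krt17, chr11:100263343-100264566 in Krt42 and chr11:100132623-100133079 in Krt15. Krt17 differed from Krt14 at 2 of these 90 bases, Krt16 and Krt42 at 9 each and Krt15 at 20. The sequences came from the GENCODE M21 transcripts.

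The libraries were read with single-end reads of 85 bases, so each member's transcripts were cut into all stretches of 85 bases and looked up in the transcripts of every other annotated gene. Of the stretches of Krt6b, 35.4% also lay in another gene, and 33.8% lay in Krt6a. For Krt16 the share was 27.1%, with 325 of 1481 stretches shared with Gm11597, an unprocessed pseudogene on chromosome 11 from 100228845 to 100232078, and 76 with Krt14. The shares were 6.29% for Krt5 and 4.55% for Krt14. For Krt15, Krt17, Krt2, Krt23 and Krt42 it was 0 at the full read length. Reads are shorter once adaptors are trimmed, and with stretches of 50 bases the share was 3.99% for Krt17, 0.640% for Krt15 and 0.234% for Krt42. How the authors' counting treated reads with several matches is not given in the sources used here, and the values of Krt6b and Krt16 are uncertain for this reason.

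**Figure D1:**
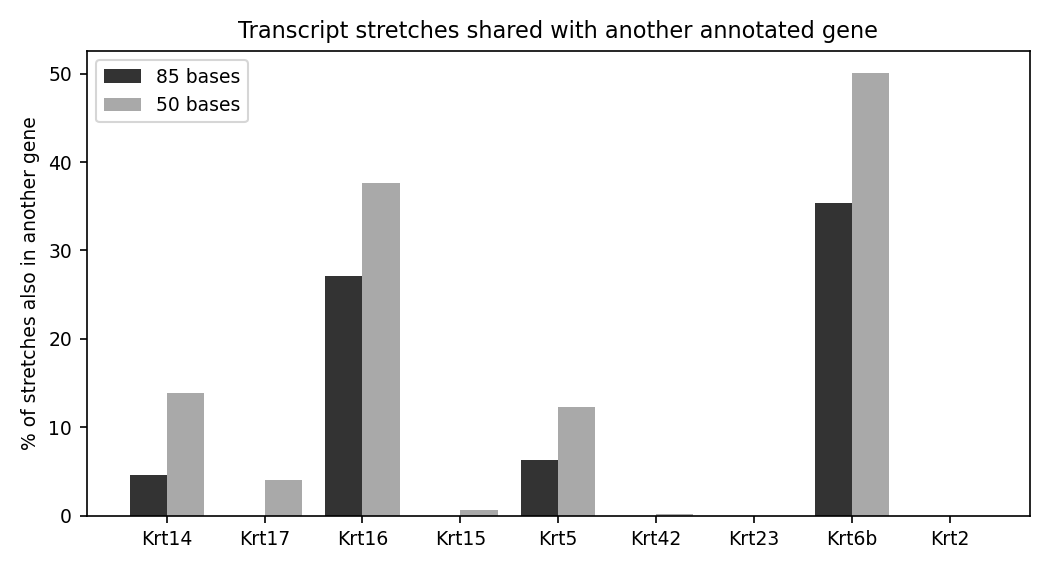
Share of all stretches of a member's transcripts, in percent, that also lie in a transcript of another gene, for stretches of 85 bases (dark) and of 50 bases (light). At 85 bases only Krt6b, Krt16, Krt5 and Krt14 had shared stretches.

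All 9 members were in the lower list of the authors' tables, where 86.9% of all listed genes lie, and no keratin was in the higher list. GENCODE M21 has 53 protein coding genes with a Krt number, 27 on chromosome 11 and 26 on chromosome 15. Of these, 6 type I genes on chromosome 11 and 3 type II genes on chromosome 15 were listed. The members were taken from the lists, and the listed share of all tested genes is not given in the sources used here. The luminal keratins Krt7, Krt8, Krt18 and Krt19 were in neither list, nor was Krt6a, the neighbour of Krt6b. Genes that missed the thresholds have no values in the tables, so the levels of these keratins in either genotype were not analysed here.

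**Figure D2:**
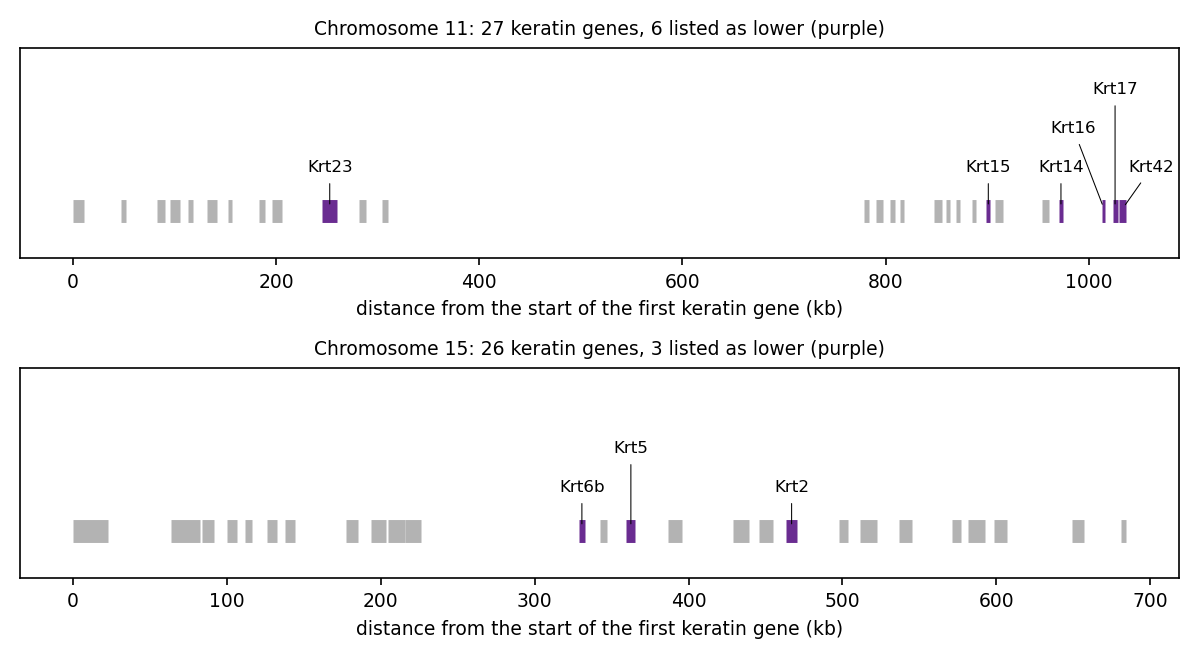
Positions of the keratin genes on chromosomes 11 and 15, as distance in kb from the start of the first keratin gene, with listed genes in purple and the others in grey. Krt14, Krt16, Krt17 and Krt42 lie at the end of the chromosome 11 cluster, and Krt23 lies apart from the other listed type I genes.

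The basal pair was abundant and lower in ERα-/-.GFP+ MECs by about the same factor in both partners. Krt14, on chromosome 11 from 100203162 to 100207548, is the main type I chain of basal cells. The authors' mean count of Krt14 was 15943 reads in WT.GFP+ against 5099 in ERα-/-.GFP+ MECs. On the scale of the authors' mean log2 CPM, where CPM is a count scaled to the size of the library, it was 9.20 and 7.37, a difference of −1.82, or 3.54-fold lower in ERα-/-.GFP+ MECs. In such bulk samples, fewer cells of a type and less RNA per cell cannot be told apart. Krt5, its type II partner on chromosome 15 from 101707070 to 101712898, was counted at 3905 and 1230 reads. Its mean log2 CPM was 7.18 and 5.34, a difference of −1.84, or 3.58-fold. The level of Krt14 over that of Krt5, per length, was therefore 5.06 and 5.13. Taken from the mean counts, this ratio was 5.10 and 5.18, with 95% counting intervals that overlapped and had their upper ends at 5.21 and 5.37. All intervals given here are exact binomial intervals on the summed reads, taken as independent, and do not cover the spread between samples. Amplified reads are not independent molecules, so the intervals may be too narrow for counting error as well.

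Krt15, another type I keratin of basal cells, known also from the hair follicle bulge, lies on chromosome 11 from 100131758 to 100135928. Its mean counts were 3607 and 1279, and its mean log2 CPM was 7.07 and 5.34, a difference of −1.73, or 3.31-fold. This was the smallest difference among the 3 basal keratins. The ratio of Krt15 to Krt5 per length was 1.16 and 1.25. From the mean counts it was 1.15 (1.12 to 1.18) and 1.29 (1.24 to 1.35), intervals that do not overlap. Whether these ratios differ beyond the spread between samples could not be tested.

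The stress keratins were lower by a similar factor, and the levels of the type I genes among them lay within the range of the basal keratins. Krt17, on chromosome 11 from 100256217 to 100261029, was counted at 9161 and 2734 reads. Its mean log2 CPM of 8.40 and 6.44 differed by −1.96, or 3.88-fold, the largest difference among the 6 basal and stress keratins. Krt16, from 100246091 to 100248902, was counted at 4011 and 1286 reads, with a difference of −1.82 on the log2 CPM scale, or 3.52-fold. Per length, its level was 0.281 and 0.282 of that of Krt14, while the level of Krt17 was 0.652 and 0.594 of that of Krt14.

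Krt6b, the type II stress keratin on chromosome 15 from 101676023 to 101680287, was scarce next to its type I partners. Its mean counts were 103 and 38.7, and its difference of −1.56 in mean log2 CPM, or 2.94-fold, was the smallest among the 9 keratins. From the summed reads, 308 against 116, and scaled for depth, the fold was 2.86 with a counting interval of 2.31 to 3.58, a range that holds the values of most other members. Per length, Krt16 was 55.3 and 46.2 times the level of Krt6b, and Krt17 was 128 and 97.3 times. These ratios leave out Krt6a, which was not listed and shares stretches with Krt6b.

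The other 3 members are neither among the basal nor among the stress keratins. Krt42, a type I keratin known from nail, lies next to Krt17 on chromosome 11 from 100262882 to 100269871. Its mean counts were 1634 and 516, and its difference in mean log2 CPM was −1.84, or 3.58-fold. Krt23, a type I keratin on chromosome 11 from 99477974 to 99493137, was counted at 812 and 242 reads, with a difference of −1.83, or 3.55-fold. Krt2, a type II keratin of the upper epidermis on chromosome 15 from 101810689 to 101818169, was counted at 16.7 and 4 reads. Its difference of −2.22, or 4.67-fold, was the largest among the 9 keratins, but it rests on 50 and 12 reads summed over the samples, and the fold of 4.49 from these reads has a counting interval of 2.36 to 9.27.

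Per length, the order of the 9 keratins was the same in both genotypes. In WT.GFP+ MECs the levels were 333 CPM per kb of exons for Krt14, 217 for Krt17, 93.7 for Krt16, 76.2 for Krt15 and 65.9 for Krt5. Krt42 followed at 34.1, Krt23 at 18.9, Krt6b at 1.69 and Krt2 at 0.241 CPM per kb. The ranking of Krt15 above Krt5 was the closest in WT.GFP+ MECs, and no spread between samples is at hand to judge it. In ERα-/-.GFP+ MECs the levels ran from 94.3 CPM per kb for Krt14 through 18.4 for Krt5 to 0.0515 for Krt2.

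**Figure D3:**
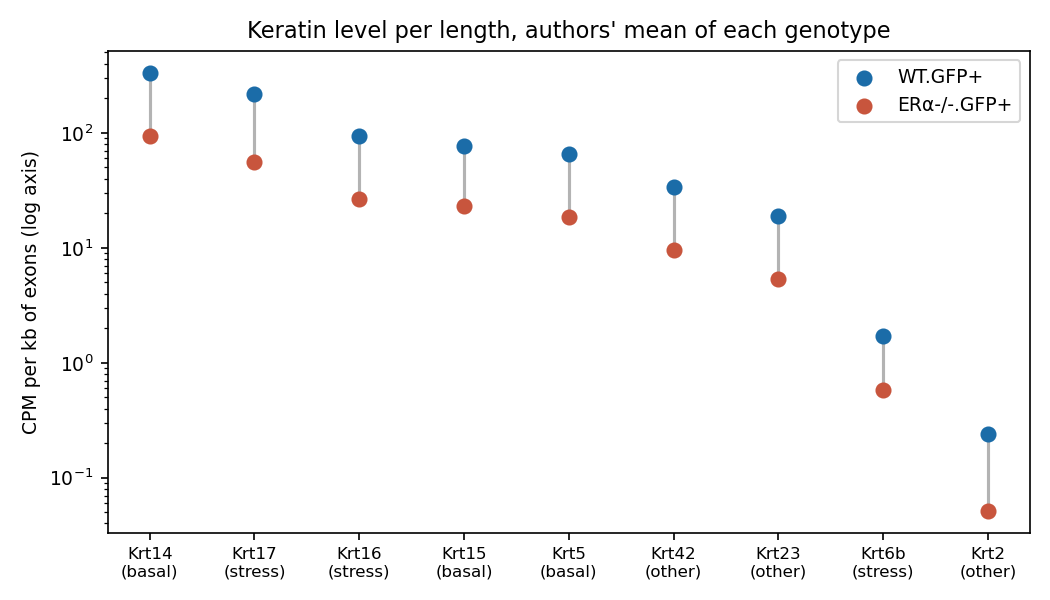
Level of each keratin in CPM per kb of exons on a log axis, from the authors' mean of WT.GFP+ (blue) and of ERα-/-.GFP+ (red) samples, with a line joining the genotypes. The lines are of similar length from Krt14 at 333 and 94.3 to Krt23 at 18.9 and 5.33 CPM per kb.

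The make-up of the keratin total was similar in both genotypes, while its size differed. The summed CPM of the 9 genes, each taken from its mean log2 CPM, was 1443 in WT.GFP+ against 402 in ERα-/-.GFP+ MECs, a 3.59-fold difference. Of their summed level per length, the 3 basal keratins held 56.5% and 58.0%, and the 3 stress keratins held 37.2% and 35.6%. The type I members summed to 11.4 and 11.3 times the type II members. Type II keratins outside the tables do not enter this ratio.

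**Figure D4:**
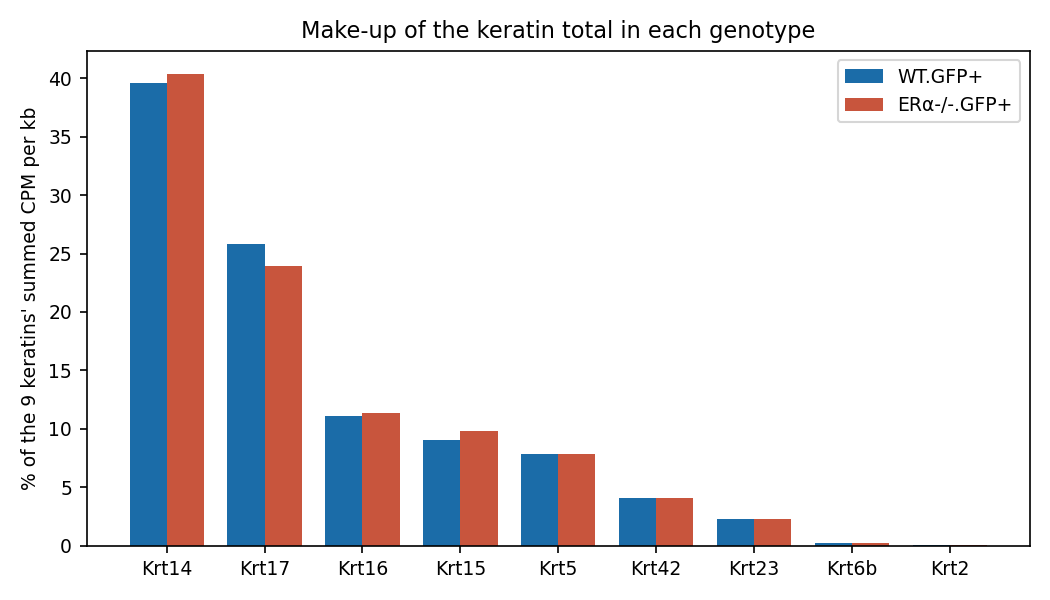
Share of each keratin in the summed CPM per kb of the 9 keratins, in percent, in WT.GFP+ (blue) and ERα-/-.GFP+ MECs (red). Krt14 held 39.6% and 40.3%, and Krt17 25.8% and 24.0%.

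Set against the other genes of the lower list, the keratins stood near the middle by the size of the difference and high by their level. Their median difference in mean log2 CPM was −1.83, against −1.74 over the 566 lower genes, and 8 of the 9 lay between the quartiles of that list, −2.06 and −1.44. More than 3-fold lower were 8 of the 9, all but Krt6b, beside 64.1% of the lower list. By level in WT.GFP+ MECs, Krt14 was at position 9 of the 566 genes and Krt17 at position 16, and 5 of the 9 were among the first 50. The differences of abundant genes in this list are smaller. Over the 169 lower genes counted at 1000 reads or more in WT.GFP+ MECs the median was −1.58, and over the 6 keratins among them it was −1.83. These 6 keratins lay within 0.23 of each other on the log2 scale.

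**Figure D5:**
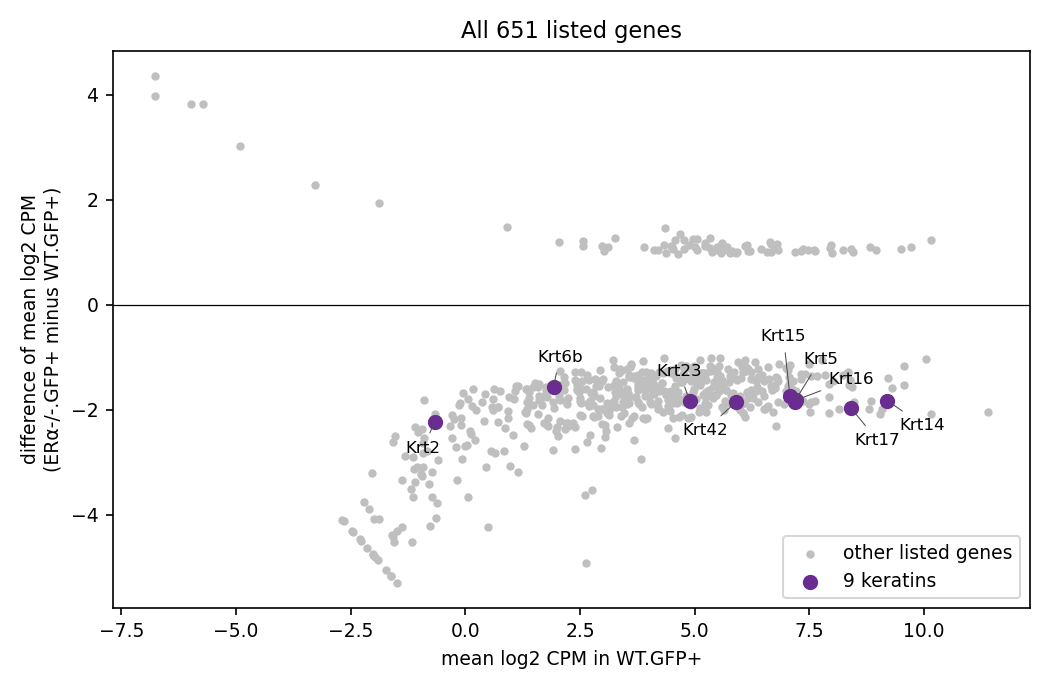
Difference of the authors' mean log2 CPM (ERα-/-.GFP+ minus WT.GFP+) against the mean log2 CPM in WT.GFP+ for the 651 listed genes, with the 9 keratins in purple. The 6 keratins counted at 1000 reads or more form a narrow band from −1.96 to −1.73, and the gap around 0 is due to the authors' fold threshold.

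No standard deviation can be taken from the tables, and the means bear on the spread only indirectly. Where the samples of a genotype differ in a gene, averaging the logs gives less than the log of the average, so the mean count divided by the CPM rises above the depth. The depth was taken as the median of this quotient over genes counted at 1000 reads or more, 27190483 reads in WT.GFP+ against 29326709 reads in ERα-/-.GFP+ MECs. These were themselves listed genes, keratins among them. The shares above the depth are therefore partly set by this choice, and any spread common to these genes is already in the depth. In WT.GFP+ MECs the quotients of the keratins counted at 100 reads or more were 0.985 to 1.01 of the depth, and 4 of 8 were above it, beside 60.1% of the lower genes with such counts. In ERα-/-.GFP+ MECs they were 0.989 to 1.07 of the depth, and 6 of 7 were above the depth, beside 69.3% of the lower genes with such counts. Of the higher genes, 24.7% were above the depth in WT.GFP+ against 14.1% in ERα-/-.GFP+ MECs, so the quotient also differed between the lists. Unequal depths of the samples enter this quotient as well, and depth and spread cannot be told apart.

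The lower list also held markers of basal and myoepithelial cells. Of all listed genes 86.9% were lower and 13.1% higher, so each count of listed genes below stands beside these shares, and lower counts alone set no list apart. Of 18 markers of basal and myoepithelial cells, 14 were listed, all of them lower, beside 86.9% of all listed genes. Their median difference was −1.97 in mean log2 CPM. The smooth muscle actin gene Acta2 differed by −2.04 and the calponin gene Cnn1 by −2.09, against −1.84 for Krt5. The summed level of the 14 markers was 6595 and 1649 CPM. The listed genes of a set of T-cell and cytotoxic markers moved the other way. Of 20 T-cell and cytotoxic genes 9 were listed, all of them higher, beside 13.1% of all listed genes. Their differences were 1.06 to 1.27, with a summed level of 2810 and 6310 CPM. The other 11, among them Cd3e, Cd8a and Lck, were in neither list. Of 10 pan-leukocyte genes 4 were listed, all of them higher, with summed levels of 1313 and 2743 CPM. The highest of the listed T-cell and cytotoxic genes, Gzmb, was at 1140 and 2689 CPM, against 586 and 166 CPM for Krt14. A gate on CD45 would remove leukocytes, but whether these samples were gated on it is not stated. The part of leukocytes in the keratin values was not tested. Of 18 luminal markers Pgr, the progesterone receptor gene, was lower and the other 17 were in neither list, and 0 of 16 milk genes, 0 of 6 endothelial and 0 of 6 fibroblast genes were listed.

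Of 18 genes whose proteins hold keratin filaments at desmosomes and hemidesmosomes, 5 were listed, all of them lower, beside 86.9% of all listed genes. Col17a1, the transmembrane collagen of hemidesmosomes, differed by −2.30 in mean log2 CPM, the plakophilin gene Pkp1 by −2.05, and Dsp, which encodes desmoplakin, the linker from desmosome to keratin, by −1.76. Dst, whose epithelial form ties keratin to hemidesmosomes, differed by −1.49 and the desmosomal Perp by −1.28. The other 13, among them Itga6, Itgb4, Jup and Plec, were in neither list. Of 10 transcription factors known at keratin or basal cell genes, 7 were listed, all of them lower, which again stands beside 86.9% of all listed genes. Trp63, whose product P63 is the master regulator of basal epithelium and acts at Krt5 and Krt14, differed by −1.82, with mean counts of 1942 and 521. Snai2 differed by −1.86, Tfap2c by −1.62, Sox9 by −1.52, Klf5 by −1.41, Fosl1 by −1.32 and Tfap2a by −1.23. Of 14 genes of epidermal differentiation, Sfn was lower by −1.13 and the other 13 were in neither list, so their levels are not known. Krt1, Krt10, Lor and Ivl were among those 13.

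Nearest to Krt5 in the pair of genotype means were Pdlim3, Sema3c and Krt16, each within 0.05 on the log2 CPM scale. Nearest to Krt14 were Myl9, Tagln and Tpm1, at distances of 0.09, 0.30 and 0.37. The distance is over 2 means only and carries no statement on shared control.

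A promoter is shown for Krt5 because P63 is known to act there and Trp63 was in the same list. RefSeq promoters were at hand for 5 members, of which that of Krt14 starts inside the gene and was set aside, which left Krt5, Krt2, Krt23 and Krt42. The 250 bases before the start of Krt5, on the minus strand at chr15:101712906-101713155 of GRCm38.p6, held a match to the 10-base word of the p53 family, to which P63 belongs, shown in capitals. A full site of this family is a pair of such words, which was not searched for.
Krt5: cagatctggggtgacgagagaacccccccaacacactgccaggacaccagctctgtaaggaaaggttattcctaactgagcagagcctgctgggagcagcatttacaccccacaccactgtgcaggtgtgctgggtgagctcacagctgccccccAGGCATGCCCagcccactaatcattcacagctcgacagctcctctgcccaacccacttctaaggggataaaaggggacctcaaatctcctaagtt
The match begins 95 bases before the start. This single word was found in 7.13% of 32851 promoter windows of the same length, searched on both strands, and in 0 of the other 3 members' windows. The palindromic oestrogen response element was in 0 of the 4 windows and in 0.0639% of all. The word GGTCA, which is part of that element, was in the windows of Krt23 and Krt42 and in 35.2% of all. The words TATAAA and GGGCGG (the Sp1 site) were in 0 of the 4 windows, and in 12.4% and 32.7% of all. These matches describe letters in short windows and not binding.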

How the data were processed

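RNA of GFP+ sorted cells from 3 WT.GFP+ and 3 ERα-/-.GFP+ samples was reverse transcribed from an oligo dT primer, amplified with an ultra-low-input kit that does not mark strand and sequenced as single-end reads of 85 bases. The authors aligned the reads to mm10 with HTSstation, kept the 90% top expressed genes in ASAP and ran edgeR. The counter and annotation are not given in the sources used here. The deposited tables list the genes past the authors' thresholds of 2-fold and FDR 0.05. Deposited values of 1 kind are raw counts averaged by the authors, as each value times 3 was whole within 0.0001. The deposited normalised value is the authors' mean of log2 CPM. The deposited fold changes, p-values and FDR are the authors' own comparison and were not used. Their headers number the groups without naming a genotype, which was assigned from the direction stated by the study.

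Differences are ERα-/-.GFP+ minus WT.GFP+ of the deposited mean log2 CPM, and CPM is 2 to the power of that mean. Depth was the median of mean count over CPM for genes counted at 1000 reads or more, over 220 genes in WT.GFP+ (27190483 reads) and 140 in ERα-/-.GFP+ MECs (29326709 reads). It is approximate. Levels per length used the union of exons in GENCODE M21 (GRCm38), matched by identifier for 650 of 651 genes. Identity was taken between coding sequences, in place of the planned proteins. Counting intervals are exact at 95%. They were tried on simulated independent reads, where such intervals hold by construction, so this does not bear on amplified reads. The members and lists were chosen with earlier results of these data known. Genes named are the members, listed genes of the keratin, anchoring, regulator and epidermal lists, luminal keratins, examples of the marker lists, and the 3 genes nearest to Krt5 and to Krt14. Those examples, Gm11597 and genes in neither list were picked after values were seen. The scripts used scipy 1.17.1 and biopython 1.88 with pandas 2.3.3 and matplotlib 3.10.9 under Python 3.11.15.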

Additional observations from a re-analysis of the deposited data

How the results depend on the processing

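The direction of the 9 differences was the same from mean counts with and without scaling for depth. The median difference was −1.77 with scaling and −1.66 without it, against −1.83 from mean log2 CPM. Scaled counts gave smaller differences, such as −1.85 for Krt17 and −1.60 for Krt15, except for Krt23, at −1.86. A floor of 3 reads could change nothing, since no keratin had a mean count under 3. By mean log2 CPM, 8 keratins remained at more than 3-fold and 1, Krt2, at more than 4-fold. From counts without scaling, Krt15 was 2.82-fold and Krt6b 2.66-fold lower, both under 3-fold. With a minimum mean count of 10 or 100 in WT.GFP+ the number was 9 and 8. From mean counts, the ratio of Krt15 to Krt5 was 1.13 times as high in ERα-/-.GFP+ as in WT.GFP+ MECs, against 1.08 from mean log2 CPM. With stretches of 50 bases, 7 members shared sequence with another gene, against 4 with 85 bases. Fits without each replicate cannot be made from means and were left out. No paired analysis was possible because the tables hold means only and the genotypes share a single replicate number. Depth limits Krt2 most, with 12 reads in all in ERα-/-.GFP+ MECs, and the authors' thresholds hide smaller differences.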

Other observations

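The stretches of chromosomes 11 and 15 between the first and the last keratin gene held 13 listed genes, and each of the 13 was lower in ERα-/-.GFP+ MECs, beside 86.9% of all listed genes. The 4 that are not keratins by symbol were chosen with their values known. The pseudogene Gm11597, between Krt14 and Krt16, was counted at 773 reads in WT.GFP+ against 260 in ERα-/-.GFP+ MECs in the authors' means, with a difference of −1.73 in mean log2 CPM, and 36.9% of its stretches of 85 bases lay in Krt16. The protein coding genes Gm5478 and Gm5414, beside Krt6b, had mean counts of 93 and 30 and of 45 and 16, with differences of −1.75 and −1.63. Of their stretches, 2.50% and 2.98% lay in the 9 keratins. Reads of the keratins could have been counted in these genes, or the reverse, and this was not tested.

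Krtap17-1, a keratin-associated protein gene within the chromosome 11 cluster, shared 0 stretches with the keratins. It was counted at 33 and 8.33 reads, a difference of −2.00 in mean log2 CPM, and it was the only listed gene of 57 annotated Krtap genes.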
